A study of Mus musculus with 39 samples.

Results

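The 4 genes of inhibitor of DNA binding proteins, Id1, Id2, Id3 and Id4, and 4 further genes known to respond to bone morphogenetic protein 9 (BMP9), namely Atoh8, Bambi, Bmper and Tmem100, were followed by their symbols through the deposited expression tables. These are 8 of the 24946 genes present in all 5 tables. The libraries hold RNA of brain endothelium from C57BL/6 mouse pups in which an endothelial gene of the BMP9 pathway had been deleted, a model of hereditary haemorrhagic telangiectasia, and the 39 libraries used fall into 9 groups. Cells were released from the whole brain with a dissociation kit and captured on beads carrying a PECAM antibody. Mutants (MUT) carried the floxed gene, Smad4f/f, Alk1f/f or Engf/f, with Cdh5-CreERT2, a tamoxifen-dependent recombinase driven by the promoter of the endothelial cadherin gene Cdh5. Wild types (WT) carried the same floxed gene without the recombinase. Smad4 and Eng pups received 300 µg of tamoxifen on postnatal days 1, 2 and 3 and were 7 days old, and Alk1 pups received 100 µg on day 4 and were 6 days old, with 5 MUT and 5 WT libraries in each model. A further 3 Smad4 MUT libraries came from pups given LC10, an inhibitor of angiopoietin-2, and 3 Smad4 MUT and 3 Smad4 WT libraries from pups given control IgG, each at 30 µg on days 2 and 4 and all with the 300 µg tamoxifen schedule at 7 days of age. Model, tamoxifen schedule and age cannot be told apart where Alk1 is set against the other models, and nothing in the labels states that libraries of a group came from separate litters, so p-values measure the spread between these libraries.

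In endothelial cells, circulating BMP9 and BMP10 bind the receptor ALK1 (gene Acvrl1), with endoglin (Eng) as co-receptor. The receptor phosphorylates SMAD transcription factors, which bind DNA together with SMAD4, and the Id genes are among their direct targets. ID proteins hold a helix-loop-helix dimerisation domain but no basic DNA-binding region, and by pairing with E proteins such as TCF4 they keep those partners off DNA. ATOH8 is a basic helix-loop-helix transcription factor, BAMBI a membrane protein that resembles a receptor but lacks the kinase, BMPER a secreted protein that binds BMPs, and TMEM100 a small membrane protein of arterial endothelium induced by BMP9 through ALK1.

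In GENCODE M21 (mm10), Id1 is annotated at chr2:152736251-152737410, Id2 at chr12:25093799-25097140, Id3 at chr4:136143497-136145755, Id4 at chr13:48261228-48266026, Atoh8 at chr6:72206177-72235577, Bmper at chr9:23223076-23485200 and Tmem100 at chr11:90030348-90036508. All of these are protein-coding, and Id2 and Atoh8 lie on the minus strand. Exons of Id4 overlap A330033J07Rik and Gm49291 on the opposite strand, and the library kit does not mark strand, so the Id4 values are uncertain. RefSeq promoter windows (build GRCm38.p6) were matched for 5 of the 8 genes. The 250 bases upstream of the RefSeq start of Id2, Id3 and Bmper are shown 5′ to 3′ on the gene's strand because the effects on these 3 genes differed between the Smad4 and Alk1 models. Capitals mark GGCGCC or GGAGCC on either strand, which are GC-rich motifs bound by BMP-regulated SMADs. The Id2 window is chr12:25096093-25096342, minus strand, the Id3 window chr4:136143572-136143821, plus strand, and the Bmper window chr9:23222826-23223075, plus strand. The windows of Id2 and Id3 lie within the GENCODE genes given above, whose annotated starts are further upstream.
Id2: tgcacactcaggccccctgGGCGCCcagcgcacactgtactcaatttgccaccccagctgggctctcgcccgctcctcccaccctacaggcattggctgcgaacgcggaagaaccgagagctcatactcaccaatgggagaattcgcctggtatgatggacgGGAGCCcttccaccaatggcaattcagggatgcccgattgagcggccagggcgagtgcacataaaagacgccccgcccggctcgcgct
Id3: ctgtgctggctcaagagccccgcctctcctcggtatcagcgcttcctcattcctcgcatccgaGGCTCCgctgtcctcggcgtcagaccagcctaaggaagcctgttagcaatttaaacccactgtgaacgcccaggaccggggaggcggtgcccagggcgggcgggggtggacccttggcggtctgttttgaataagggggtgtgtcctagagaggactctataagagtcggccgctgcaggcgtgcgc
Bmper: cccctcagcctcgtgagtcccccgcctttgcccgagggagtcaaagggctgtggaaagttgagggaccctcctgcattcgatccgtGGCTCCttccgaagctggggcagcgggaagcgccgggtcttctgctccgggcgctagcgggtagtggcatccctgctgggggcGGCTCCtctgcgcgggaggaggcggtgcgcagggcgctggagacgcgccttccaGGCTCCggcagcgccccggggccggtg
The Id2 window held 1 GGCGCC and 1 GGAGCC, the Id3 window 1 GGAGCC, and the Bmper window 3 GGAGCC. Windows of Id4 held 1 of each, and that of Atoh8 neither. Over 32851 windows of the same length from 27025 genes, 9.59% held GGCGCC and 26.0% held GGAGCC on either strand. GTCT, a short motif bound by SMAD4 and searched on both strands, occurred once in the Id2 window, 2 times each in the Id3 and Bmper windows and not in those of Id4 or Atoh8, against 82.9% of all windows. The E-box CANNTG, bound by basic helix-loop-helix factors, occurred 2 times in the Atoh8 window and once in that of Id2, against 66.2% of all windows. None of the 5 windows held GGCGCC and GTCT 5 bases apart in one orientation, an arrangement found in 0.0700% of all windows. These matches describe the letters of the windows alone.

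The deposited values are a normalised expression signal per gene and library, not raw counts, and each model's table was normalised by itself. The sum of a library ran from 25.44M to 42.74M, with 16105 to 17683 genes above 0. A rough estimate from the step between low values gave 11.05M to 30.4M fragments. It holds only if the values are rescaled counts, which could not be told. Values of 10 endothelial markers summed to between 368429 and 686328 in every library, with the lowest sum in LC10 MUT. The sums were 7981 to 33349 for 8 astrocyte markers and 16135 to 127238 for 8 pericyte markers, so RNA of other cell types was present. No marker of these lists was at 0 throughout a group. These ranges span tables normalised separately. Smad4 itself fell to between 1676 and 1916 in Smad4 MUT, against 5258 to 5903 in Smad4 WT, and Eng fell to between 8613 and 11508 in Eng MUT, against 60151 to 70402 in Eng WT. Acvrl1 was at 12441 to 15809 in Alk1 MUT and 14197 to 16756 in Alk1 WT, and since the sources used here do not state which part of the gene is deleted, this does not check the label. Differences were tested with limma on log2 of the value plus 2 over all genes tested, and a gene is called higher or lower at a Benjamini-Hochberg adjusted p under 0.05. Fold changes are MUT over WT on that scale, which makes the change of genes with low values too small, and ± gives the SE of a fold change or the SD of a mean. In bulk RNA, fewer cells of a type and less RNA per cell cannot be told apart. Where groups are said not to overlap, the share of all genes without overlap was not computed.

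In Smad4 MUT, 4 of the 8 genes were lower (Id1, Id2, Id3 and Atoh8) and 1 was higher (Bambi), in Alk1 MUT 4 were lower (Id1, Id2, Id3 and Tmem100) and 1 was higher (Bmper), and in Eng MUT 1 was lower (Bambi) and 0 were higher. Of all genes tested by the same limma rule, 15.8% were lower and 17.2% higher in Smad4 MUT, 15.7% lower and 17.5% higher in Alk1 MUT, and 9.08% lower and 12.4% higher in Eng MUT. All 8 genes passed the filter on low values in each model, Bmper in the Alk1 model through its MUT libraries, since 2 of the 5 WT libraries reached the minimum of 20. The median log2 fold change of the 8 genes was −0.78 in Smad4, −0.60 in Alk1 and −0.21 in Eng MUT, beside −0.01 over all genes tested in each model. With each library divided by its total, calls among all genes split 37.2% higher in the Smad4 and 41.1% higher in the Alk1 model, against 52.1% and 52.7% as deposited. At an unadjusted p under 0.05, 7 of the 8 genes passed in the Smad4, 5 in the Alk1 and 5 in the Eng model, where all 5 were lower in MUT.

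**Figure D1:**
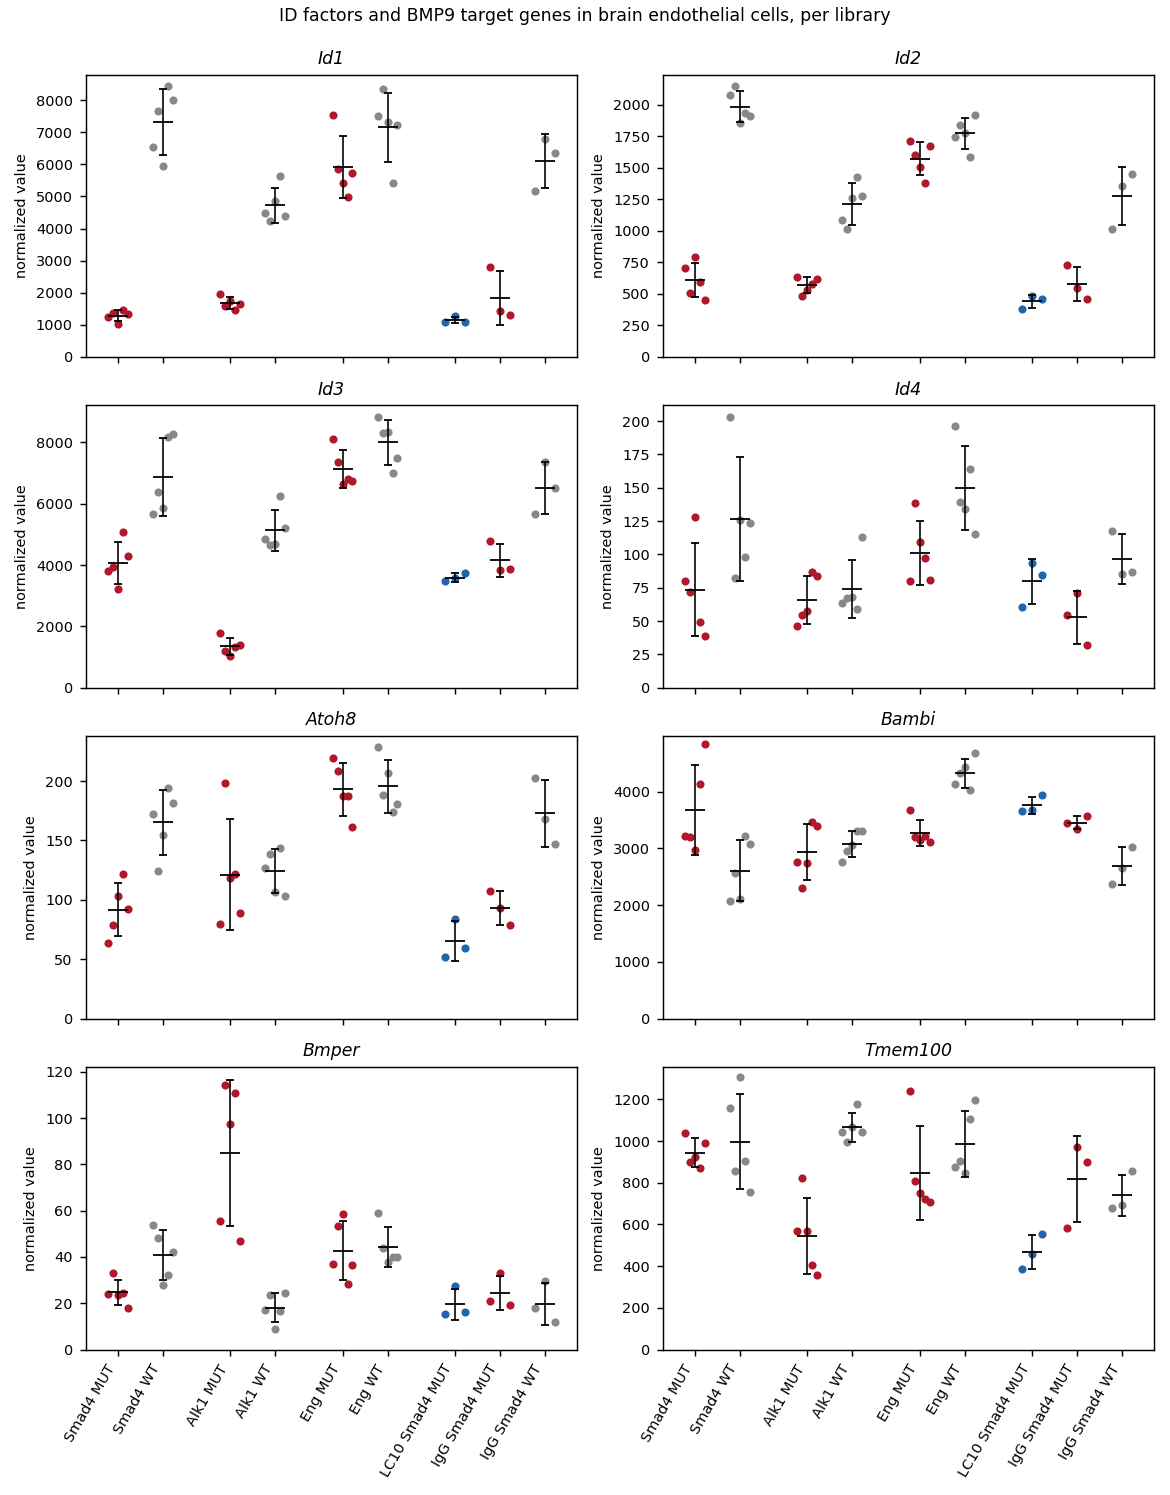
Deposited normalised signal of the 8 genes in every library (vertical axis of each panel), with MUT left of WT in each model and LC10 MUT, IgG MUT and IgG WT at the right, these 3 after being brought to 1 scale; each point is 1 library, coloured red for MUT, blue for LC10 MUT and grey for WT, with the group mean and SD as bars. The Id1 points of Smad4 MUT sit between 1037 and 1448, all below the 5949.5 to 8426 of Smad4 WT, while those of Eng MUT and Eng WT overlap.

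Id1 was the ID factor with the strongest fall in the Smad4 model. It had 1238, 1382, 1037, 1448 and 1334 in Smad4 MUT, against 6547, 7662, 5949.5, 8426 and 8006 in Smad4 WT. In the Alk1 model it had 1952, 1585, 1741, 1447 and 1648 in Alk1 MUT, against 4481, 4247, 4845, 5633 and 4396 in Alk1 WT. In both models every MUT library was below every WT library. The log2 fold change was −2.50 ± 0.11 (adjusted p = 1.32e-07) in Smad4 and −1.49 ± 0.09 (adjusted p = 7.68e-07) in Alk1. In the Eng model Id1 had 7546, 5859.8, 5409, 4996 and 5744 in Eng MUT, against 7516, 8332, 7304, 5413 and 7215 in Eng WT, and the groups overlapped. The Eng fold change of −0.28 ± 0.12 did not pass (adjusted p = 0.13), and it was called without Eng MUT 1, the MUT library highest in Id1 and in Eng (adjusted p = 0.0307), or without Eng WT 4, the WT library lowest in Id1 (adjusted p = 0.0246). The effect on Id1 itself differed between the models, by −1.01 ± 0.17 for Smad4 minus Alk1 (adjusted p = 9.82e-05), −2.23 for Smad4 minus Eng (adjusted p = 2.48e-10) and −1.22 for Alk1 minus Eng (adjusted p = 1.48e-05).

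Id2 fell in the same 2 models and in the same order. It had 701, 509.8, 791, 591 and 454 in Smad4 MUT, against 2078, 2151, 1853, 1936 and 1908 in Smad4 WT, a log2 fold change of −1.73 ± 0.13 (adjusted p = 5.81e-06). In the Alk1 model it had 634, 486, 528, 579 and 621 in Alk1 MUT, against 1089, 1011, 1257, 1427 and 1275 in Alk1 WT, a log2 fold change of −1.08 ± 0.11 (adjusted p = 1.67e-05). No MUT library reached a WT library in either model. In Eng the means were 1573 ± 134 in MUT and 1773 ± 123 in WT (SD, n = 5 each), and the groups overlapped, with a log2 fold change of −0.17 ± 0.07 (adjusted p = 0.0846, and 0.0421 without Eng WT 4). Between models, the difference of effects was −0.64 for Smad4 minus Alk1 (adjusted p = 0.00534), −1.55 for Smad4 minus Eng (adjusted p = 1.27e-07) and −0.91 for Alk1 minus Eng (adjusted p = 0.000257).

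Id3 fell in these models too, but with the order turned round. It had 1794, 1198, 1031, 1325 and 1398 in Alk1 MUT, against 4852, 4662, 4688, 6252 and 5218 in Alk1 WT, a log2 fold change of −1.94 ± 0.13 (adjusted p = 1.18e-06). In the Smad4 model it had 3803, 3936, 3228, 5083 and 4308 in Smad4 MUT, against 5670.1, 6392, 5845, 8171 and 8285 in Smad4 WT, a log2 fold change of −0.75 ± 0.14 (adjusted p = 0.00227). Neither model showed overlap between its groups, with the highest Smad4 MUT library at 5083 and the lowest WT library at 5670.1. In Eng the means were 7142 ± 616 in MUT and 7999 ± 725 in WT, with overlap and a log2 fold change of −0.16 ± 0.07 (adjusted p = 0.124), which passed without Eng MUT 1 (adjusted p = 0.0416) or Eng WT 4 (adjusted p = 0.046). Id3 was lowered less in Smad4 than in Alk1 MUT, by a difference of 1.19 (adjusted p = 3.17e-05), and Alk1 minus Eng was −1.78 (adjusted p = 1.34e-07). Smad4 minus Eng was −0.59 (adjusted p = 0.0426), a call that was lost in 15 of 36 alternatives, 14 of which left out 1 library of the Smad4 or Eng model, with adjusted p up to 0.0817 (without Smad4 WT 5). Of all genes, 15.9% differed between the Smad4 and Alk1 effects, 8.04% between Smad4 and Eng and 14.5% between Alk1 and Eng, each out of 14701 tested in either direction. With each library divided by its total, 33.8% of the calls for Smad4 minus Eng and 38.8% of those for Alk1 minus Eng were positive, against 51.7% and 53.7% as deposited, and the median of all genes was −0.12 and −0.11, against −0.02 in both as deposited.

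**Figure D2:**
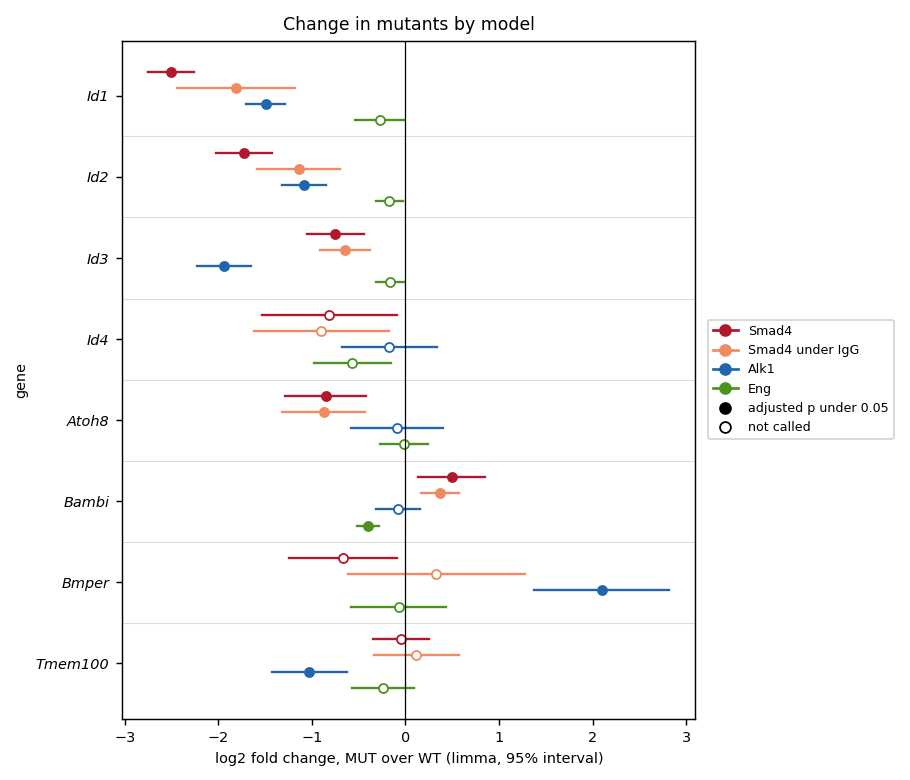
Log2 fold change of MUT over WT for each gene (rows) in the Smad4, Alk1 and Eng models and under IgG, with the 95% interval of limma as a bar; filled points have an adjusted p under 0.05. Id1 lies at −2.50 in Smad4 and −1.49 in Alk1, and Id3 at −0.75 and −1.94.

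The opposite grading of Id1 and Id3 can be read within single libraries, where the scaling of a library cancels. The ratio of Id1 to Id3 values ran from 0.285 to 0.351 in Smad4 MUT, against 0.966 to 1.20 in Smad4 WT. In the Alk1 model it ran from 1.09 to 1.69 in Alk1 MUT, against 0.842 to 1.03 in Alk1 WT. So the ratio was below all WT libraries in every Smad4 MUT library and above all WT libraries in every Alk1 MUT library. In Eng it ran from 0.733 to 0.929 in MUT and from 0.772 to 1.00 in WT, with overlap. The ratio of Id2 to Id3 likewise lay at 0.353 to 0.512 in Alk1 MUT, above the 0.217 to 0.268 of Alk1 WT, but at 0.105 to 0.245 in Smad4 MUT it overlapped the 0.230 to 0.366 of Smad4 WT. These ratios describe the values and were not tested apart from the genes.

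**Figure D3:**
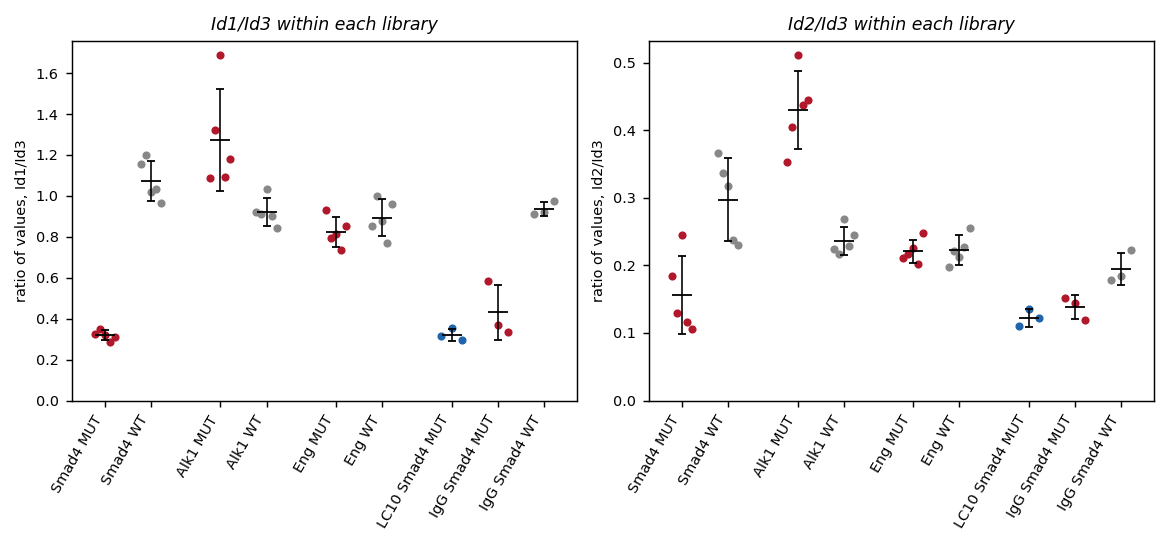
Ratio of the Id1 value to the Id3 value and of Id2 to Id3 in each library (vertical axes), by group, MUT left of WT; each point is 1 library, and bars give the group mean and SD. Smad4 MUT libraries sit at 0.285 to 0.351 for Id1 over Id3 and Alk1 MUT libraries at 1.09 to 1.69, on opposite sides of their WT groups.

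Id4, the ID factor with the lowest values, was not called in any model. It had 79.9, 72.0, 128, 49.4 and 38.8 in Smad4 MUT, against 203, 82.3, 126, 98.1 and 123 in Smad4 WT, which overlap, with a log2 fold change of −0.81 ± 0.33 (adjusted p = 0.0759). In Eng it had 80.0, 139, 109, 97.2 and 80.6 in MUT, against 197, 139, 134, 164 and 115 in WT, again with overlap, and a log2 fold change of −0.57 ± 0.19 just short of the threshold (adjusted p = 0.0502). In Alk1 the means were 65.8 ± 18.4 in MUT and 74.2 ± 21.9 in WT, with a log2 fold change of −0.17 ± 0.23 (adjusted p = 0.613). Its call turned on the setting. Without Smad4 MUT 3, the MUT library highest in Id4, it was called in Smad4 (adjusted p = 0.0197). It was also called there with the code in column names as a term (adjusted p = 0.0332) and when the 3 models were fitted together (adjusted p = 0.0162). Over the libraries with a code alone it was called too (−1.29, adjusted p = 0.0137), but over those without one it was not (−0.50, adjusted p = 0.368). In Eng 6 of 21 alternatives called it, among them those without Eng WT 5 (adjusted p = 0.0326) or Eng MUT 2 (adjusted p = 0.0195) and the one with the code as a term (adjusted p = 0.0305). With a term for the level of glial and neuronal markers the Smad4 value was 0.018 (adjusted p = 0.971).

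Atoh8, the basic helix-loop-helix factor among the BMP9 targets, was lower in Smad4 MUT and was not called in Alk1 or Eng MUT. It had 63.2, 78.5, 103, 122 and 92.5 in Smad4 MUT, against 172, 124, 155, 194 and 182 in Smad4 WT, without overlap, although the 2 nearest libraries were 122 and 124. The log2 fold change was −0.85 ± 0.20 (adjusted p = 0.00781), and −0.55 with an adjusted p of 0.118 after quantile normalisation. In Alk1 it averaged 121 ± 46.9 in MUT and 124 ± 18.3 in WT, with a log2 fold change of −0.09 (95% interval −0.59 to 0.40). In Eng it averaged 193 ± 22.4 in MUT and 195 ± 22.3 in WT, with a log2 fold change of −0.02 (95% interval −0.27 to 0.24). The difference between effects did not pass for Smad4 minus Alk1 (−0.76, adjusted p = 0.0524) or Smad4 minus Eng (−0.83, adjusted p = 0.0521), so Atoh8 is not shown to differ between the models. Those tests stood at the threshold and passed in 8 and 9 of 36 alternatives, with adjusted p down to 0.0163 without Alk1 MUT 1 and 0.0211 without Alk1 MUT 2.

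Bambi, the pseudoreceptor, a protein-coding gene at chr18:3507923-3516404 in the same annotation, moved in opposite directions in 2 models. It had 3214, 3208, 2980.5, 4143 and 4839 in Smad4 MUT, against 2073, 2566, 2106, 3226 and 3076 in Smad4 WT, which overlap, with a log2 fold change of 0.49 ± 0.16 (adjusted p = 0.0374). In Eng it had 3673, 3194, 3145, 3222 and 3107 in MUT, against 4139, 4326, 4441, 4029 and 4674 in WT, without overlap, and a log2 fold change of −0.40 ± 0.05 (adjusted p = 0.000256). In Alk1 it averaged 2934 ± 492 in MUT and 3077 ± 234 in WT, with a log2 fold change of −0.08 (95% interval −0.32 to 0.15). The Smad4 effect exceeded the Eng effect by 0.90 (adjusted p = 0.0014) and the Alk1 effect by 0.58 (adjusted p = 0.0253), where leaving out Smad4 WT 1 or 3, Smad4 MUT 5 or Alk1 MUT 2 gave adjusted p of 0.0542 to 0.057. The rise in Smad4 MUT was not called without Smad4 WT 1, 2 or 3 (adjusted p = 0.089, 0.0693 and 0.0862) or without Smad4 MUT 4 or 5 (adjusted p = 0.0873 and 0.0782), and with the marker term it was 0.12 (adjusted p = 0.611). The fall in Eng MUT was called in all 21 alternatives.

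Bmper, the secreted BMP-binding protein, was higher in Alk1 MUT. It had 55.5, 114, 97.6, 111 and 47.0 in Alk1 MUT, against 16.9, 23.6, 8.69, 16.7 and 24.6 in Alk1 WT, so that the lowest MUT library was above the highest WT library. The log2 fold change was 2.10 ± 0.33 (adjusted p = 0.000532). Bmper passed the filter on low values in this model through these MUT libraries, so its entry into the test depended on the group where it is high. In Smad4 it averaged 24.7 ± 5.39 in MUT and 40.7 ± 10.7 in WT, with a log2 fold change of −0.66 ± 0.26 (adjusted p = 0.0706). In Eng it averaged 42.8 ± 12.7 in MUT and 44.2 ± 8.68 in WT, with −0.07 ± 0.23 (adjusted p = 0.866). The Alk1 effect differed from both others, by −2.76 for Smad4 minus Alk1 (adjusted p = 1.00e-05) and 2.17 for Alk1 minus Eng (adjusted p = 0.000323).

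Tmem100, the endothelial membrane protein, was lower in Alk1 MUT. It had 568, 825, 569.9, 405 and 355 in Alk1 MUT, against 1041, 994, 1068, 1178 and 1043 in Alk1 WT, without overlap and with a log2 fold change of −1.03 ± 0.19 (adjusted p = 0.00127). In Smad4 it had 1038, 899.97, 922, 872 and 989 in MUT, against 1161, 856, 1307, 906 and 755 in WT, and its log2 fold change of −0.05 had a 95% interval of −0.35 to 0.25. In Eng it averaged 847 ± 224 in MUT and 986 ± 156 in WT, with a log2 fold change of −0.24 ± 0.15 (adjusted p = 0.313), which passed without Eng MUT 1 (adjusted p = 0.0255). The effect in Smad4 exceeded that in Alk1 by 0.97 (adjusted p = 0.00643), and Alk1 minus Eng was −0.79 (adjusted p = 0.0308), a call lost without Alk1 WT 4, Alk1 MUT 4 or 5, Eng WT 1, 2 or 3, or Eng MUT 1, with adjusted p of 0.0521 to 0.0694.

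**Figure D4:**
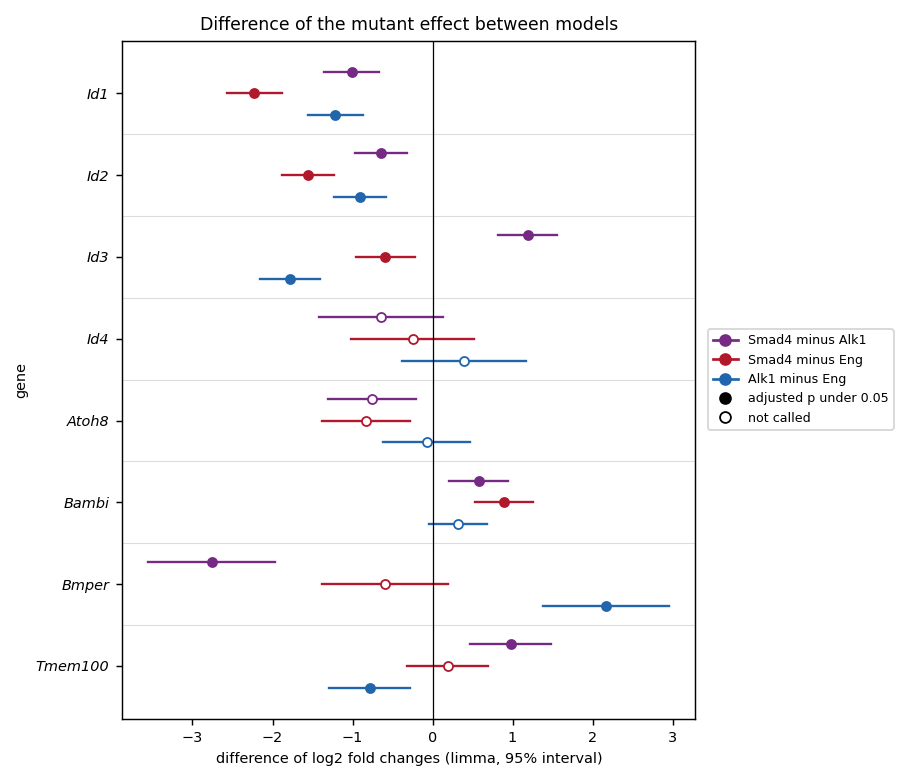
Difference between the log2 fold changes of 2 models for each gene (rows), as Smad4 minus Alk1, Smad4 minus Eng and Alk1 minus Eng, with 95% intervals of limma; filled points have an adjusted p under 0.05. Id3, Bmper and Tmem100 lie on opposite sides of 0 for Smad4 minus Alk1 (1.19, −2.76 and 0.97) and Alk1 minus Eng (−1.78, 2.17 and −0.79). The Alk1 effect enters these differences with opposite signs, so a large Alk1 effect by itself places a gene on opposite sides.

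Some column names carry a code, and the labels do not say what it stands for. It is L146 in 2 libraries of each Smad4 group, L219 in 2 of each Alk1 group, and L210 in 4 and L216 in 1 of each Eng group. Within libraries without and with the code, the Smad4 log2 fold changes were −2.46 and −2.56 for Id1, −1.62 and −1.89 for Id2, −0.71 and −0.81 for Id3, −0.88 and −0.81 for Atoh8 and 0.48 and 0.51 for Bambi, each called. In the Alk1 model they were −1.36 and −1.69 for Id1, −1.03 and −1.17 for Id2, −1.86 and −2.07 for Id3, 2.34 and 1.74 for Bmper and −0.68 and −1.54 for Tmem100, each called. Over the L210 libraries of Eng, an alternative added after values had been seen, Bambi was at −0.36 (adjusted p = 0.00135). With the code as a term, Id4 passed in Smad4 and in Eng, as given above, and no other call of the 8 genes changed.

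Genes of other cell types were lower in Smad4 MUT as well. The marker counts here are to be read beside the shares of all genes tested. These were 15.8% lower and 17.2% higher in Smad4, 15.7% lower and 17.5% higher in Alk1, and 9.08% lower and 12.4% higher in Eng MUT. Counts near these shares are not results about a cell type. Of the markers tested, 5 of 8 pericyte, 3 of 8 astrocyte, 6 of 8 neuron and 3 of 6 oligodendrocyte-lineage genes were lower and 0 were higher, as were 4 of 5 smooth muscle and 2 of 5 fibroblast genes, beside 1 lower and 2 higher of 10 endothelial genes. Summed pericyte markers ran from 16135 to 49606 in Smad4 MUT, against 55905 to 78999 in Smad4 WT, and summed astrocyte markers from 7981 to 20661 in Smad4 MUT, against 13746 to 33349 in Smad4 WT. With the mean log2 level of glial and neuronal markers as a term, the Smad4 log2 fold changes were −2.69 for Id1, −1.43 for Id2, −1.02 for Id3 and −0.999 for Atoh8, all still called. In Alk1 MUT 2 of 8 pericyte, 2 of 8 neuron and 4 of 5 smooth muscle markers were lower, and summed smooth muscle markers ran from 1684 to 3418 in MUT, against 4117 to 4883 in WT, while summed pericyte markers ran from 60385 to 114676 in MUT and from 87626 to 111160 in WT. Of the Alk1 endothelial markers, 2 of 10 were lower and 3 higher. In Eng MUT limma called 0 of the 8 pericyte, 8 astrocyte and 8 neuron markers, and 0, 0 and 1 of them had an unadjusted p under 0.05. There 4 of 10 endothelial markers were lower and 0 higher, and their sum ran from 576473 to 610483 in Eng MUT and from 606520 to 686328 in Eng WT, an overlap of the groups. Of the erythroid markers tested, 3 of 4 were lower in Smad4, 4 of 4 in Alk1 and 3 of 5 in Eng MUT. Their sum ran from 11509 to 18573 in Smad4 MUT, against 31131 to 44808 in Smad4 WT. In the Alk1 model the erythroid sum ran from 16016 to 23773 in MUT, against 40556 to 67845 in WT. In Eng it ran from 18118 to 31962 in MUT and from 26988 to 48288 in WT, with overlap. The part of these other cell types in the results was not tested.

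Under IgG, the Smad4 model repeated the calls of its untreated form: Id1, Id2, Id3 and Atoh8 were lower and Bambi was higher in IgG MUT, where 8.12% of all genes tested were lower and 9.67% higher. Id1 had 3057, 1546 and 1416 in IgG MUT, against 5620, 7406 and 6947 in IgG WT, a log2 fold change of −1.81 ± 0.27 (adjusted p = 0.00848). IgG MUT 1, the library with the most Id1, also had the most Smad4, at 3030.1 against 2099 and 1817 in the other IgG MUT libraries, while IgG WT had 5625 to 5975. Id2 had 795, 599 and 501 in IgG MUT, against 1102, 1475 and 1588 in IgG WT (log2 fold change −1.14 ± 0.19, adjusted p = 0.0114). Id3 had 5218, 4167 and 4225 in IgG MUT, against 6163, 8032 and 7135 in IgG WT (log2 fold change −0.65 ± 0.12, adjusted p = 0.014). No MUT library of the 3 genes reached a WT library, which weighs less with 3 libraries a group. Atoh8 had 117, 102 and 85.9 in IgG MUT, against 220.04, 183 and 161 in IgG WT (log2 fold change −0.87 ± 0.19, adjusted p = 0.0235), and Bambi had 3757, 3649.9 and 3901 in IgG MUT, against 2575, 2898 and 3316 in IgG WT (log2 fold change 0.37 ± 0.09, adjusted p = 0.0307). Id4 was at 59.5, 77.7 and 35.2 in IgG MUT, against 128, 92.6 and 94.8 in IgG WT, without overlap but not called (adjusted p = 0.08). Bmper (log2 fold change 0.33 ± 0.41) and Tmem100 (0.12 ± 0.19) were not called.

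With 3 libraries a group these calls were less firm. Without IgG MUT 2, Id2, Id3, Atoh8 and Bambi missed the threshold (adjusted p = 0.0563, 0.0651, 0.0842 and 0.0906), and with the glial and neuronal marker term Id1, Id2 and Id3 did (adjusted p = 0.052, 0.0805 and 0.0971), at log2 fold changes of −1.71, −0.85 and −0.53. Atoh8 was also lost under quantile normalisation (0.0538) and without IgG WT 1 (0.0618), IgG WT 2 (0.0724) or IgG MUT 3 (0.0576), as adjusted p values, and Bambi without the same 3 libraries (0.0561, 0.0906 and 0.0764). Summed astrocyte markers ran from 9615 to 12284 in IgG MUT, against 13326 to 17894 in IgG WT, and summed pericyte markers from 37584 to 71935 in IgG MUT, against 74992 to 103931 in IgG WT. Of 6 microglia markers, 4 were lower in IgG MUT, beside 8.12% of all genes tested. The microglia sum ran from 6661 to 11728 in IgG MUT, against 12343 to 25317 in IgG WT. In untreated Smad4 MUT limma called 0 of these 6, and 0 had an unadjusted p under 0.05. A test of the difference between the untreated and the IgG form of the Smad4 effect called 0 of the 8 genes by limma, beside 0.00688% of all genes (1 of 14535), and 3 of the 8 had an unadjusted p under 0.05, with differences of −0.69 for Id1, −0.58 for Id2 and −0.996 for Bmper. Without IgG MUT 1 these differences were −0.34 for Id1 and −0.41 for Id2, and with any 1 library left out that for Bmper ran from −1.31 to −0.71.

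LC10 libraries are in a table of their own, and antibody and table cannot be told apart, so their levels are given without a test after all 9 antibody libraries had been brought to 1 scale by the median of ratios. Id1 had 1090, 1270 and 1100.2 in LC10 MUT, against 2804, 1419 and 1298 in IgG MUT and 5180, 6801 and 6356 in IgG WT. All LC10 MUT libraries were thus below all IgG libraries. Mean Id2 was 440.4 in LC10 MUT, 579 in IgG MUT and 1275 in IgG WT, and mean Id3 was 3594 in LC10 MUT, 4161 in IgG MUT and 6528 in IgG WT. Mean Atoh8 was 65.1 in LC10 MUT, 93.2 in IgG MUT and 173 in IgG WT, and mean Bambi was 3758 in LC10 MUT, 3457 in IgG MUT and 2689 in IgG WT. On this scale none of these 5 genes stood nearer to IgG WT in LC10 MUT than in IgG MUT. Tmem100, which was not called between IgG MUT and IgG WT, had 389, 460 and 552 in LC10 MUT, against 581, 971 and 900.2 in IgG MUT and 677, 692 and 854 in IgG WT, so that every LC10 library was below every IgG library. Mean Id4 was 79.7 in LC10 MUT, 52.7 in IgG MUT and 96.5 in IgG WT, and mean Bmper was 19.6 in LC10 MUT, 24.4 in IgG MUT and 19.8 in IgG WT. The log2 difference between LC10 MUT and IgG MUT was −0.59 for Id1, with an SD of the difference of 0.62, and −0.24 without IgG MUT 1, the library with the most Id1 and Smad4. Without that library it was −0.20 for Id2 (−0.38 with it) and −0.099 for Id3 (−0.20 with it). It was −0.79 for Tmem100 (SD 0.47) and 0.12 for Bambi (SD 0.076), and the last was −0.25 with the values as deposited. The ratio of Id1 to Id3, which no scaling affects, was 0.294 to 0.355 in LC10 MUT, 0.335 to 0.586 in IgG MUT and 0.912 to 0.974 in IgG WT.

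Across the 30 untreated libraries, each set against the mean of its own WT group, the genes closest to Id1 among 11944 compared included Adh1 (Pearson r = 0.972) and Id2 (0.961). Those closest to Id2 after Id1 were Pcca (0.955) and Ddc (0.953). Id3 had other neighbours, Slc5a6, a vitamin transporter (0.975), Gkn3, a gene of brain arterial endothelium (0.965), and Lmo2, a partner of basic helix-loop-helix factors (0.962). Bmper was closest to Pfkfb3, a glycolytic regulator (0.899), Vegfa (0.892) and Pmp22 (0.891), and Tmem100 to Sema3g (0.870), Ceacam1 (0.836) and Entpd1 (0.835). Bambi was closest to Ctnnb1 (0.907), Bok (0.905) and Mfng (0.876), Atoh8 to Numbl (0.841), Prom1 (0.822) and Jag2 (0.820), and Id4 to Gpm6a, a gene of neural cells (0.882), Cbs (0.881) and Fgf1 (0.879). The r values are descriptions over libraries that share genotype groups and carry no p.

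The proteins that ID factors bind, and the complex around them, were followed through 7 genes. Of these, 2 were lower and 1 higher in Smad4 MUT, 4 lower and 1 higher in Alk1 MUT, 4 lower and 0 higher in Eng MUT, and 2 lower and 0 higher in IgG MUT. Over all genes tested, the shares were 15.8% lower and 17.2% higher in Smad4, 15.7% lower and 17.5% higher in Alk1, 9.08% lower and 12.4% higher in Eng and 8.12% lower and 9.67% higher in IgG MUT. The counts of this list and of those that follow are to be read beside these shares, and no list was tested as such. Lmo2 was lower in each, with a log2 fold change of −0.77 ± 0.09 in Smad4 (adjusted p = 0.000119), −1.32 ± 0.11 in Alk1 (adjusted p = 4.89e-06), −0.29 ± 0.06 in Eng (adjusted p = 0.00649) and −0.42 ± 0.11 under IgG (adjusted p = 0.0405). Tcf4, an E protein bound by ID factors, was higher in Smad4 (0.29 ± 0.09, adjusted p = 0.0345) and Alk1 MUT (0.61 ± 0.11, adjusted p = 0.00165). Lyl1, a basic helix-loop-helix factor, was lower in Smad4 (−0.74 ± 0.23, adjusted p = 0.0295) and Eng MUT (−0.42 ± 0.09, adjusted p = 0.00697).

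Among 11 other BMP9 targets, 4 were higher and 4 lower in Smad4 MUT, 2 higher and 7 lower in Alk1 MUT, 2 higher and 2 lower in Eng MUT, and 3 higher and 2 lower in IgG MUT. Cdkn1a, an inhibitor of the cell cycle, was higher in Smad4 (log2 fold change 1.86 ± 0.14, adjusted p = 3.42e-06), Alk1 (1.86 ± 0.28, adjusted p = 0.000321) and Eng MUT (1.53 ± 0.12, adjusted p = 4.82e-06). The arterial connexin genes Gja5 (−1.87 ± 0.24, adjusted p = 0.000129) and Gja4 (−1.19 ± 0.16, adjusted p = 0.000188) were lower in Alk1 MUT. Pmepa1, a feedback inhibitor of TGF-beta signalling (1.24 ± 0.06, adjusted p = 1.32e-07), and Lfng, a modifier of Notch receptors (2.07 ± 0.14, adjusted p = 2.62e-06), were higher in Smad4 MUT. Hey1, a Notch and BMP target, was lower in Eng MUT (−0.77 ± 0.09, adjusted p = 7.22e-05).

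Of the transducers, 6 SMAD genes were tested in each model. Smad1, which ALK1 phosphorylates, was higher in Smad4 (0.94 ± 0.13, adjusted p = 0.000347), in Alk1 (1.57 ± 0.10, adjusted p = 9.54e-07) and in IgG MUT (0.63 ± 0.06, adjusted p = 0.00249). Smad5, another target of ALK1, was higher in Smad4 (0.39 ± 0.05, adjusted p = 0.000221) and IgG MUT (0.39 ± 0.04, adjusted p = 0.00359) and lower in Eng MUT (−0.12 ± 0.03, adjusted p = 0.0137). Smad9, named after its value was seen, was lower in Smad4 MUT (−2.46, adjusted p = 0.00973). In Alk1, Eng and IgG MUT Smad9 was not called. Of 11 receptor genes, 3 were lower and 1 higher in Smad4 MUT, 2 lower and 0 higher in Alk1 MUT, 4 lower and 0 higher in Eng MUT, the deleted Eng included, and 4 lower and 1 higher in IgG MUT. Eng was higher in Smad4 MUT (0.45 ± 0.08, adjusted p = 0.00167) and lower in Alk1 MUT (−0.36 ± 0.10, adjusted p = 0.0116). Of 8 inhibitor genes tested, 1 was higher and 1 lower in Smad4 MUT, and 1 higher and 2 lower in Eng MUT. Of 7 tested under IgG, 0 were higher and 1 was lower. The inhibitor gene Smad6, itself induced by BMP signalling, was lower in Smad4 (−0.56 ± 0.13, adjusted p = 0.00959), Eng (−0.41 ± 0.12, adjusted p = 0.0261) and IgG MUT (−0.45 ± 0.11, adjusted p = 0.0335). In Alk1 MUT limma called 0 of 7 inhibitor genes, with 1 at an unadjusted p under 0.05. Of 5 ligand genes tested, Bmp2 was higher in Alk1 (0.66 ± 0.14, adjusted p = 0.00405) and Eng MUT (1.20 ± 0.17, adjusted p = 0.000419), and Bmp6 was lower in Smad4 MUT (−1.01 ± 0.23, adjusted p = 0.00719).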

How the data were processed

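Messenger RNA was measured in 39 libraries of bead-captured brain endothelial cells. The deposited tables, 1 for each model and antibody, hold a normalised signal per gene and library, made by the authors with mm10 as genome build, per the submitters' processing notes, although the labels call them raw counts. No source used here names the aligner, the counter or the normalisation. The values are not whole numbers, and no test for counts was used. Between 13.8 and 24.9% of a library's values lay within 0.05 of whole multiples of a step estimated from its low values. That estimate is approximate and its error grows with each multiple, so this share cannot tell whether the values are rescaled counts. Columns of the untreated models were joined to samples by group, so their replicate numbers are file order, and 3 columns (wild types given LC10) fit no described sample and stayed unused. From the 24972 genes of a table, 26 were dropped for names that were repeated or turned into dates. Of the symbols, 98.1% are in GENCODE M21. No pair of columns was identical.

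The value plus 2 was put on the log2 scale and tested with limma 3.58.1 (R 4.3.3, intensity trend) on genes reaching 20 in 5 or more libraries (3 for fits with IgG libraries), each model alone. Differences between models came from a joint fit of the 30 untreated libraries. The procedure was tested on simulated data with noise independent between genes and libraries, a setting simpler than these data. That run does not check the calls made here. The text names all 8 genes, the 3 deleted genes, up to 3 genes with the smallest adjusted p per pathway list, and the 3 genes of highest Pearson r to each of the 8 among genes with a mean of at least 100. Some pathway genes of smallest adjusted p are counted but left unnamed, so the pathway genes named are a selection. One gene that meets this rule is not reported here. The 8 genes and all lists were chosen with earlier results of these data known. The same-number correlation of IgG MUT and IgG WT libraries ran from −0.07 to 0.06, so numbers do not pair samples. Among untreated libraries without a code, the numbers in column names gave same-number correlations of −0.12 to 0.17 in Smad4, where they were not taken to pair samples. In Alk1 these were 0.11 to 0.21, above those of unlike numbers (−0.24 to 0.016), so pairing there is possible. The Alk1 tests in the results were unpaired all the same, and the number entered as a block only in an alternative given below.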

Additional observations from a re-analysis of the deposited data

Results flagged for a closer look

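Of 48 groups of 5 libraries examined for 1 value far from the rest, of which chance alone flags about 1 in 20, 3 had such a value. Id4 was 113 in Alk1 WT 5, above the other Alk1 WT libraries. Bambi was 3673 and Tmem100 was 1241 in Eng MUT 1, each above the other Eng MUT libraries, and the same library had the highest Id1 and Eng values of its group.

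The tested difference between effects in 2 models passed the threshold for 6 of the 8 genes between Smad4 and Alk1, at −1.01 for Id1, −0.64 for Id2, 1.19 for Id3, 0.58 for Bambi, −2.76 for Bmper and 0.97 for Tmem100. It passed for 4 genes between Smad4 and Eng, at −2.23 for Id1, −1.55 for Id2, −0.59 for Id3 and 0.90 for Bambi. It passed for 5 genes between Alk1 and Eng, at −1.22 for Id1, −0.91 for Id2, −1.78 for Id3, 2.17 for Bmper and −0.79 for Tmem100. Of all genes tested, 15.9%, 8.04% and 14.5% passed in the same order of comparisons. Of 36 alternatives, 15 lost the call of Id3 in Smad4 minus Eng and 7 that of Tmem100 in Alk1 minus Eng. The call of Bambi in Smad4 minus Alk1 was lost in 4.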

How the results depend on the processing

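The alternatives covered scaling, pseudocount, filter, codes in column names, a marker term, a joint fit and each library left out. Of 1697 values of the 8 genes under an alternative, 37 changed sign, all of genes not called in that comparison. Every call of the Alk1 model, and Bambi in Eng, passed in each alternative that gave a value, and Bmper in Alk1 was left untested by the filter at 100. With the glial and neuronal marker term, called genes numbered 2320 in Smad4 MUT (4620 without it), 1116 in IgG MUT (2480 without it, with 2 of the 8 genes in place of 5) and 786 for Smad4 minus Eng (1182 without it). Over libraries without a code they numbered 2461 in Smad4 and 2005 in Alk1 MUT (4530 in all libraries), and 1602 in Eng MUT in the joint fit (3082 alone). In Eng MUT 2 of the 8 genes, in place of 1, were called with quantile normalisation, a pseudocount of 16, the marker term or the code as a term, and 1 to 4 with a library left out. With a library left out, IgG MUT had 471 to 3073 called genes and 1 to 5 of the 8, the lowest without IgG MUT 2, and Smad4 minus Eng had 802 to 1817, the highest without Smad4 MUT 3. Untreated minus IgG had 0 to 4 called genes with a library left out and 0 at pseudocount 16, against 1. LC10 MUT minus IgG MUT, as deposited, was −0.58 for Id3 (−0.20 rescaled), −0.25 for Bambi (0.12), −0.96 for Id1 (−0.59), −0.75 for Id2 (−0.38), −0.88 for Atoh8 (−0.52), −0.63 for Bmper (−0.30), −1.16 for Tmem100 (−0.79) and 0.26 for Id4 (0.62). The cause of these changes was not tested.

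Signs turned with the marker term for Id4 in Smad4 (0.018) and Alk1 MUT (0.027), Bambi in Alk1 MUT (0.014), Bmper in Eng MUT (0.053), Id4 in Smad4 minus Eng (0.28), and Atoh8 (−0.065) and Bambi (−0.011) in untreated minus IgG. With quantile normalisation they turned for Atoh8 in Alk1 MUT (0.013) and Alk1 minus Eng (0.056) and for Id4 in Smad4 minus Eng (0.15), and with division by the total for Atoh8 in untreated minus IgG (−0.029). Over coded libraries they turned for Tmem100 in Smad4 MUT (0.17), Id4 (0.057) and Bambi (0.054) in Alk1 MUT, and over L210 libraries for Atoh8 in Eng MUT (0.015). With a library left out, Tmem100 ran from −0.14 to 0.054 in Smad4 MUT and from −0.024 to 0.35 in IgG MUT, Atoh8 from −0.29 to 0.036 in Alk1 MUT, from −0.067 to 0.042 in Eng MUT and from −0.27 to 0.056 in Alk1 minus Eng, Bambi from −0.15 to 0.0025 in Alk1 MUT, and Bmper from −0.19 to 0.055 in Eng MUT. In untreated minus IgG, Atoh8 ran from −0.097 to 0.14, Id3 from −0.20 to 0.00018 and Id4 from −0.22 to 0.33.

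With the IgG replicate number as a block, 2451 genes and 5 of the 8 were called, Id1 at an adjusted p of 0.0154, and no call of the 8 genes changed. In the untreated models, the numbers in column names match no sample title and are shared between groups by the libraries without a code alone. With that number as a replicate block, an alternative added after values had been seen, 1553 genes and 4 of the 8 were called in Smad4 MUT (2461 without the block), where Atoh8 missed the threshold (−0.88, adjusted p = 0.0883), and 2174 genes and 5 of the 8 in Alk1 MUT (2005 without it). No paired analysis was possible for Eng because its groups share no column number within a code. Splits into libraries without and with a code do not apply to Eng, where all are coded. Bmper, Id4 and Atoh8 have low values, where counting error limits what could be detected.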
